A study of Lithobates clamitans with 20 samples.

Results

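In the tadpole gut, 61 genes were lower in every D32 tadpole than in every D22 tadpole while their mean level stayed steady between C22 and C32 tadpoles. The deposited count table held 8477 genes, of which these were 0.72%. They were selected on their measured values, with L the log2 CPM, the count scaled to a common library size by edgeR's TMM method, with a prior count of 2. A member had no count of 0 in any library, a mean below 1000 CPM over the 20 libraries, a highest L in D32 below the lowest L in D22, a mean L at least 1 lower in D32 than in D22, and a difference of mean L between C32 and C22 of under 0.3 in either direction. The differences D32 minus D22 and C32 minus C22 are therefore given here as descriptions, without a test.

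The tadpoles were green frogs, Lithobates clamitans, the offspring of a single pair, reared for 9 weeks and housed one to a container, and 1 gut library was made from each of the 20 tadpoles. Colonized tadpoles were raised with natural pond water and depleted tadpoles with autoclaved pond water, all at 22°C, and warm tadpoles were then kept at 32°C for 24 h. By the animal codes, C22 is read as colonized at 22°C, C32 as colonized at 32°C, D22 as depleted at 22°C and D32 as depleted at 32°C, with 5 tadpoles in each. The treatment fields of the sample records give the same group for 10 of the tadpoles and another for the other 10: by these fields C32 tadpoles were depleted and cool, and D22 tadpoles were colonized and warm. The groups are called by their codes throughout. By the treatment fields D32 against D22 compares depleted with colonized tadpoles that were both warm, C32 against C22 compares them when cool, and D against C compares warm with cool tadpoles. Each library came from part of the dissected gastrointestinal tract, so a library holds RNA of every cell type of the gut wall, and fewer cells of a type cannot be told apart from less RNA per cell. The gut label was not checked against marker genes, since the identifiers of the bullfrog genome are not paired with gene names in the files, and members are therefore given by identifier and without a role.

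A frog's body temperature follows that of the water, so a warmer chamber warms the gut itself. Heat shock raises transcripts of chaperones, the proteins that keep other proteins folded, while transcription of many other genes goes down. The gut epithelium lies against the gut microbes, and in vertebrates their presence is known to alter expression of genes for digestion, metabolism and immunity.

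Library totals ran from 11102195 to 22922461 counts. The TMM factors, which correct for a few abundant genes taking up much of a library, were 0.682 to 0.805 in 4 of the D22 libraries and 1.03 in D2209, 0.878 to 1.29 in D32, 0.973 to 1.25 in C32, and 1.05 to 1.25 in C22 apart from C2206, at 0.697. The 10 most abundant genes of a library took 26.2% to 32% of its counts in D22, 30.7% in C2206, 18% to 29.2% in the other C libraries and 23.4% to 26.4% in D32. C2208 had the 29.2%, with a factor of 1.05. Scaling by total counts in place of TMM moved the median D32 minus D22 difference of all genes by 0.51 on the log2 scale.

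The limit on the C groups cut through a continuous distribution. In all, 429 genes of the 6364 without a count of 0 and below 1000 CPM did not overlap between D22 and D32 with D32 lower, and 273 of them fell by at least 1 on the log2 scale. Among these 273 genes, C32 minus C22 had a median of −0.58 and quartiles of −0.96 and −0.28, and it was below 0 for 245. The 61 members were 22.3% of the 273. A further 199 were lower in C32 by 0.3 or more, 62 of them by at least 1, and 13 were higher in C32 by 0.3 or more. Within the members C32 minus C22 ran from −0.30 to 0.24 with a median of −0.14, and it was below 0 for 46 and above 0 for 15. Without C2206 the median was 0.03.

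**Figure D1:**
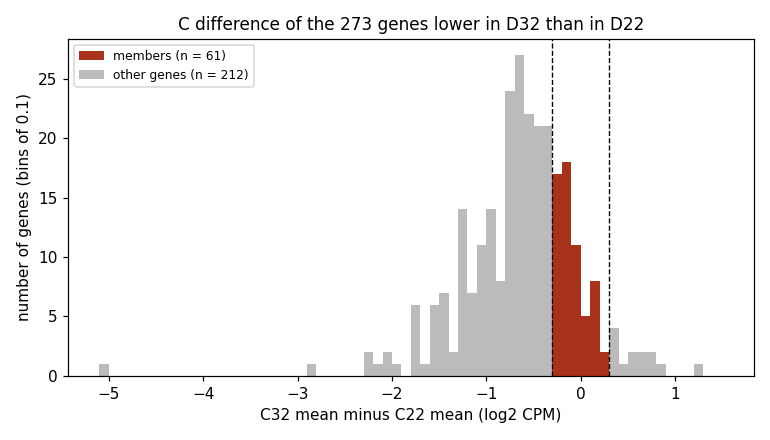
Histogram of the 273 genes that were lower in D32 than in D22 without overlap and by at least 1 log2, with C32 minus C22 in log2 CPM on the x axis and the number of genes in bins of 0.1 on the y axis. The 61 members (red) lie between the dashed limits of −0.3 and 0.3, at the upper side of a distribution with a median of −0.58.

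The members just inside and just outside each limit were close to each other. AB205_0041420 fell by 1.001 and was kept, while AB205_0173080 fell by 0.998 and was not. The C difference was −0.2951 for the member AB205_0066530 and −0.3003 for AB205_0064720, which was left out. The gap between the lowest D22 and the highest D32 library was 0.0156 for AB205_0159290, and −0.0057, a slight overlap, for AB205_0221860, which was left out. The member with the highest mean level was AB205_0041420 at 973 CPM, and the limit of 1000 CPM left out AB205_0146900 at 1144.1. A count of 0 in some library alone left out 15 genes. Each of the 15 was at 0 in D3202, in D3203 or in both, and AB205_0063350 was at 0 in 9 libraries, 6 of them C. The other limits place D32 below D22 and so favour a count of 0 in D32. The share at 0 in D3202 or D3203 among all 1990 genes with a count of 0 was not computed, so nothing is read from this.

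D32 minus D22 ran from −3.02 to −1.001 on the log2 scale, a fall of up to 8.13-fold, with a median of −1.28 (2.42-fold). Over all 8477 genes the median of this difference was 0. Mean levels of the members over 20 libraries ran from 2.37 to 973 CPM, with a median of 20.3 CPM. The smallest count of a member in any library was 5, and 2 members had a library with under 10 counts. Averaged over the members, L was 4.69 ± 0.38 (SD, n = 5) in C22, 4.59 ± 0.12 in C32, 5.34 ± 0.23 in D22 and 3.86 ± 0.48 in D32. In D32, the library means were 3.44 in D3202, 3.24 in D3203, 4.21 in D3205, 4.29 in D3206 and 4.14 in D3207, so 2 of the 5 tadpoles lay apart from the others of their group.

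**Figure D2:**
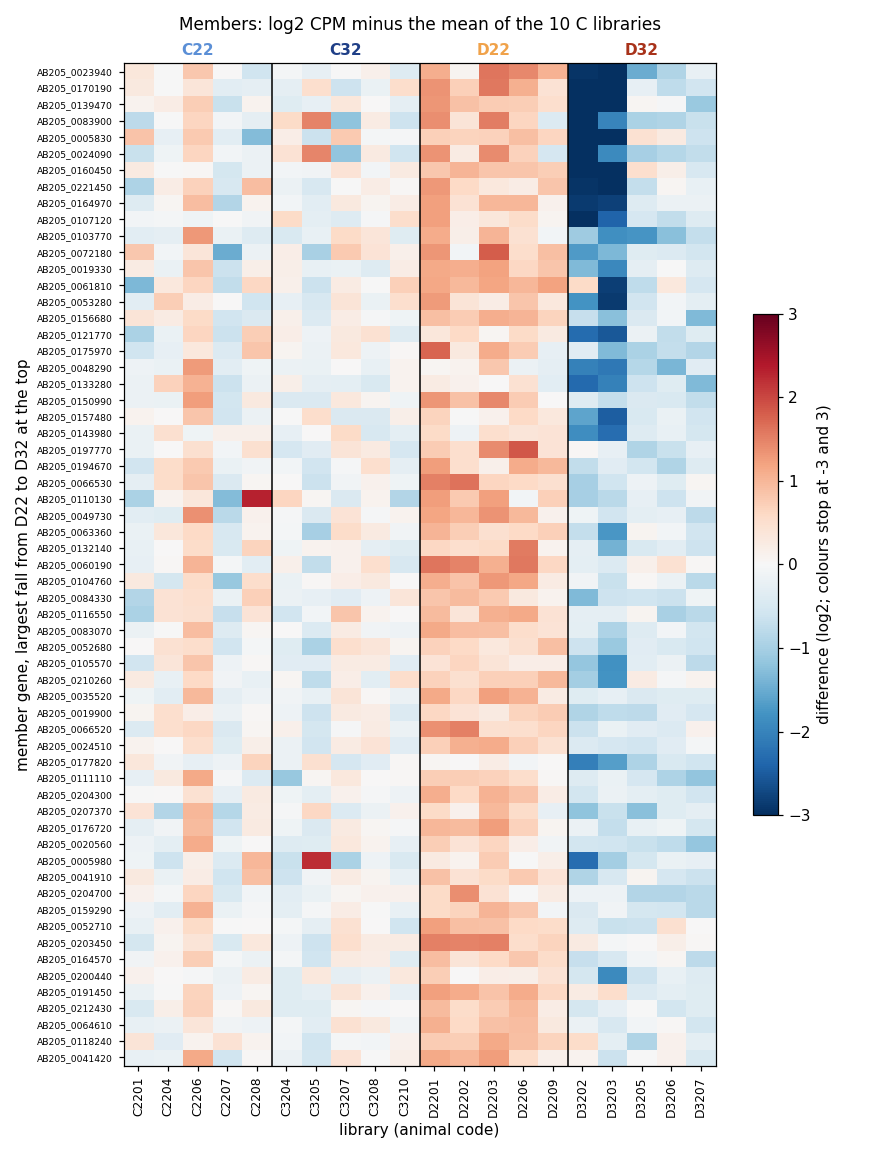
Heat map of the 61 members (rows, largest fall at the top) in the 20 libraries (columns, by code group), coloured by log2 CPM minus the mean of the 10 C libraries. D22 libraries are mostly red and D32 libraries mostly blue, with D3202 and D3203 the darkest blue in the upper rows and C2206 the reddest of the C libraries.

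The C groups lay between the D groups. For 60 of the 61 members the mean of the 10 C libraries was below the D22 mean and above the D32 mean, and for AB205_0203450 it was below both. The D22 mean was above the C mean by a median of 0.73 (range 0.05 to 1.27) and the D32 mean was below it by a median of 0.64, from 1.97 below to 0.08 above. Over all genes these medians were −0.04 for D22 and −0.01 for D32. Over the 273 genes that fell in D, members included, they were 0.75 and −0.64, close to those of the members. The C mean was nearer to D32 for 32 members and nearer to D22 for 29. A fall of 1 or more in D with a steady C requires at least one of these distances, so they are a description of where the members sat. Relative to the median of all genes, D22 was higher than C by 0.77 with TMM and by 0.75 with total counts, and D32 was at −0.63 and −0.62. Subtracting that median takes out most of a change of scaling, so nothing is read from the likeness of these values.

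**Figure D3:**
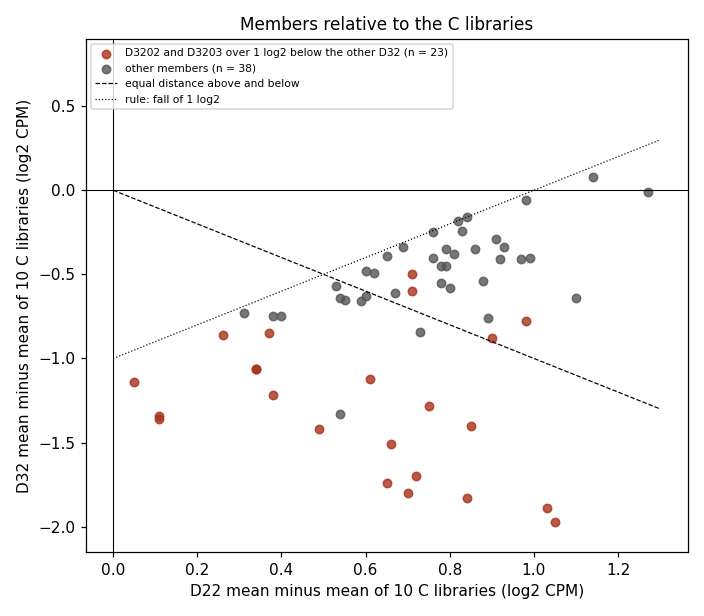
For each of the 61 members, the D22 mean (x axis) and the D32 mean (y axis) minus the mean of the 10 C libraries, in log2 CPM. The dotted line is the limit of a fall of 1, and points above the dashed line lie nearer to C in D32 than in D22 (32 members). The 23 members in red, led by D3202 and D3203, lie lower in D32, with a median of −1.28 against −0.45 for the other 38.

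The separation of the members from the C tadpoles was counted for whole groups of 5 and for single libraries. By definition, a single library lies outside the C range at least as often as its whole group. All 5 D22 libraries were above all 10 C libraries for 5 members, AB205_0160450, AB205_0061810, AB205_0156680, AB205_0203450 and AB205_0118240, and 0.578% of all genes met this. All 5 D32 libraries were below all 10 C libraries for 4 members, AB205_0107120, AB205_0103770, AB205_0048290 and AB205_0020560, and 0.201% of all genes met this. No member met both. The rule favours both patterns, so nothing is read from these shares. Counted by library, D3202 was below all 10 C libraries for 38 members and D3203 for 37, while D3205 was for 18, D3206 for 15 and D3207 for 24. Among the 6487 genes with no count of 0, the shares below all C libraries were 16.4% and 15.8% in D3202 and D3203 and 8.46% to 9.62% in the other D32 libraries. The shares above all C libraries were also larger in D3202 and D3203, at 14.7% and 12.7%, against 9.76% to 11.5% in the other D32 libraries. In D22, D2201 was above all C libraries for 40 members, D2202 for 22, D2203 for 29, D2206 for 28 and D2209 for 14. Among the 6487 genes, the shares above all C libraries were 9.71%, 13.4%, 14.4%, 8.76% and 7.26% in the same order. The shares below all C libraries were 12.2%, 11.5%, 13.4%, 11.2% and 7%.

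The members with the largest fall were lowest by far in D3202 and D3203. AB205_0023940 fell the most. It had 144.5, 72.3, 206.6, 186.3 and 140.9 normalized CPM in D2201, D2202, D2203, D2206 and D2209. In D32 it had 8.80 in D3202, 3.34 in D3203, 24.4 in D3205, 36.7 in D3206 and 58.1 in D3207. The C22 libraries held 45.4 to 120.6 and the C32 libraries 52.0 to 75.4, so D3207 lay within the range of the C tadpoles and the other 4 D32 tadpoles lay below it. Its mean was 150.1 ± 51.6 CPM (SD, n = 5) in D22, 26.3 ± 22.1 in D32, 77.7 ± 28 in C22 and 63.6 ± 9.18 in C32, a difference in mean L of −3.02.

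AB205_0170190 followed with −2.93. Its D22 libraries had 34.1, 21.9, 40.2, 27.8 and 17.9 CPM in the order of their codes, and its D32 libraries had 1.24 in D3202, 0.462 in D3203, 11.1 in D3205, 7.83 in D3206 and 8.87 in D3207. C libraries ran from 8.60 in C3207 to 19.2 in C3210. The D groups were 0.682 apart on the log2 scale at their nearest libraries, and only D3202, D3203 and D3206 were below all C libraries. AB205_0139470 had 45.1 to 79.4 CPM in D22, 2.93 and 1.13 in D3202 and D3203, and 33.2, 30.8 and 14.7 in D3205, D3206 and D3207, beside 20.0 to 52.4 in C. In this gene D3205 and D3206 thus lay in the middle of the C tadpoles.

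AB205_0005830 and AB205_0160450 showed the clearest split within D32. AB205_0005830 was steady in D22, at 109.7 to 131.1 CPM, and in D32 it had 3.68 in D3202 and 3.34 in D3203 against 97.5 in D3205, 85.02 in D3206 and 45.5 in D3207. The mean L of D3202 and D3203 was 5.01 lower than that of D22, and that of the other D32 libraries fell by 0.68. AB205_0160450 had 47.9 to 59.1 CPM in D22, 2.34 in D3202, 2.26 in D3203, 41.1 in D3205, 32.7 in D3206 and 20.6 in D3207. Its C libraries ran from 20.1 to 38.2, below every D22 tadpole. D3205 lay above them all, D3206 and D3207 lay among them, and D3202 and D3203 lay far below. Both genes kept non-overlapping D groups by a margin of 0.169 and 0.220 on the log2 scale.

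AB205_0221450, AB205_0164970 and AB205_0107120 completed the 10 with the largest fall, at −2.16, −2.03 and −1.91. AB205_0107120 was at low level, with 3.06 to 6.85 CPM in D22, 0.249 and 0.462 in D3202 and D3203, 1.69 to 2.17 in the other D32 libraries and 2.19 to 4.295 in C. It was one of the 4 members in which every D32 tadpole was below every C tadpole. Across these 10 members, the mean of D3202 and D3203 fell by 3.23 to 5.01 from D22 and that of the other D32 libraries by 0.68 to 1.92.

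The members were split by how far D3202 and D3203 lay below the other D32 tadpoles, with a limit of 1 on the log2 scale that was chosen after the values were seen. The limit was passed by 23 members, among them all 10 with the largest fall. The split itself makes D3202 and D3203 low and the spread of D32 wide in these 23, so the values that follow describe them and do not show that there are separate kinds of member. For the 23 the SD of L within D32 had a median of 1.12, against 0.29 in D22, 0.52 in C22 and 0.40 in C32. In 21 of them D3202 and D3203 were lower than all other 18 libraries. The mean of D3205, D3206 and D3207 lay within the range of the C libraries for 18 of the 23, and also for 26 of the other 38. In the 23 its median distance to the C mean was −0.41, against −2.33 for D3202 and D3203. The other 38 members had a median SD of 0.36 in D32, a median fall of 1.20, and a distance to the C mean of −0.49 in D3202 and D3203 and −0.40 in the other 3. D3202 and D3203 had 22922461 and 17557653 counts and TMM factors of 0.878 and 1.11. Values without these libraries are given as a description. By the rule, D3205, D3206 and D3207 also lie below every D22 library, so some fall remains in any case. Without D3202 and D3203, the median fall of the 61 members was 1.10 in place of 1.28. The median distance of D32 to C was then −0.41 in place of −0.64, and the rule gave 80 genes, 40 of them members. Over all 61 members, 21 had a fall of under 1 in the mean of D3205, D3206 and D3207.

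**Figure D4:**
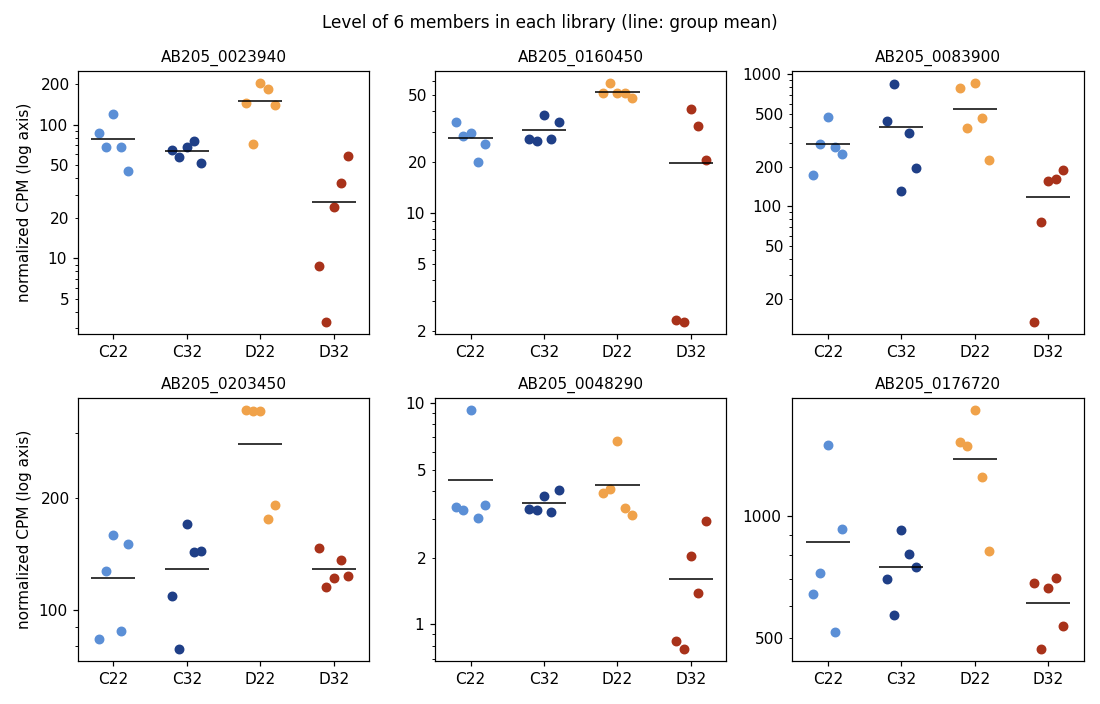
Normalized CPM on log axes of 6 members in each of the 20 libraries, by code group, with a line at the mean of each group of 5. D3202 and D3203 lie far below the other 3 D32 libraries in AB205_0023940 and AB205_0160450, while in AB205_0203450 the D32 libraries (115.6 to 147.3) lie among the C libraries and in AB205_0048290 (0.771 to 2.94) below them all.

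A pair of members ran almost in parallel. AB205_0083900 had 786.0, 392.7, 865.0, 467.8 and 224.8 CPM in D22 and 13.3, 76.1, 155.1, 160.2 and 187.6 in D32, in the order of the codes. AB205_0024090 had 801.4, 372.6, 842.1, 505.9 and 221.5 in D22 and 17.2, 82.6, 155.9, 173.5 and 188.4 in D32. Their ratio stayed between 0.772 and 1.05 in all 20 libraries while AB205_0083900 itself varied 65.2-fold. In C32 both were highest in C3205, at 847.8 and 865.8, and lowest in C3207, at 131.1 and 137.5. AB205_0146900, which the limit of 1000 CPM left out, ran at 3.17 to 3.83 times the level of AB205_0083900 in every library. The deviations of the pair from their group means correlated at 0.997 over the 20 libraries, and those of AB205_0146900 and AB205_0083900 at 0.999, as descriptions. Whether the 3 identifiers share sequence, and so reads, was not tested. C32 and C22 were steady in mean L only: C32 spread from 131.1 to 847.8 CPM in AB205_0083900, wider than the 172.9 to 471.8 of C22.

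Of the 6 most abundant members, AB205_0024090 and AB205_0083900 were among the 10 with the largest fall, and the other 4 are described here. AB205_0041420 had 1752.6, 1604.8, 1897.6, 1182.4 and 893.8 CPM in D22 and 510.4 to 870.5 in D32, with 1756.4 in C2206 and 532.8 to 1061.7 in the other C libraries. AB205_0176720 had 818.2 to 1830.6 in D22, 468.5 to 704.3 in D32, 1496.8 in C2206 and 518.2 to 929.5 in the other C libraries. AB205_0049730 had 559.8 to 1294.8 in D22, 296.3 to 470.7 in D32, 1318.6 in C2206 and 292.9 to 680.4 in the other C libraries. In all 3 the lowest D22 library was D2209, and C2206 lay within the range of D22 for AB205_0041420 and AB205_0176720 and just above it for AB205_0049730. For AB205_0064610, C2206 had 392.9, within the 245.5 to 418.7 of the other C libraries but above the 263 to 280.8 of the other C22 libraries. This gene had 374.2 to 640.9 in D22 and 206.9 to 311.8 in D32.

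C2206 was the highest C library for 36 of the 61 members, against 16.1% of the 6487 genes with no count of 0. It was at or above the lowest D22 library for 49 members, a count that was not made over all genes and from which nothing is read. Its mean L over the members was 5.27, against 4.26 to 4.76 in the other 9 C libraries. It also had a TMM factor near those of D22, and with total counts its mean L was 4.75, within the 4.59 to 4.87 of the other C libraries. With total counts the group means were 4.75 ± 0.11 (SD, n = 5) in C22, 4.72 ± 0.08 in C32, 4.97 ± 0.12 in D22 and 4.04 ± 0.65 in D32. All 61 members had a lower mean in D32 than in D22 with total counts. The groups did not overlap for 13, the fall was at least 1 for 18, its median was 0.74, and the rule gave 6 genes, 5 of them members. Over all genes the median of D32 minus D22 with total counts was 0.51. The rule had set a fall of at least 1 with TMM, larger than this shift, so a lower mean in all 61 was largely fixed in advance. The shares of all genes behind these counts were not computed with total counts, so nothing is read from the counts of members. Relative to the median of all genes, the median fall was 1.28 with TMM and 1.25 with total counts. Subtracting the median of all genes takes out most of a change of scaling, so nothing is read from this likeness. The part of library composition in the members' levels was not tested.

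**Figure D5:**
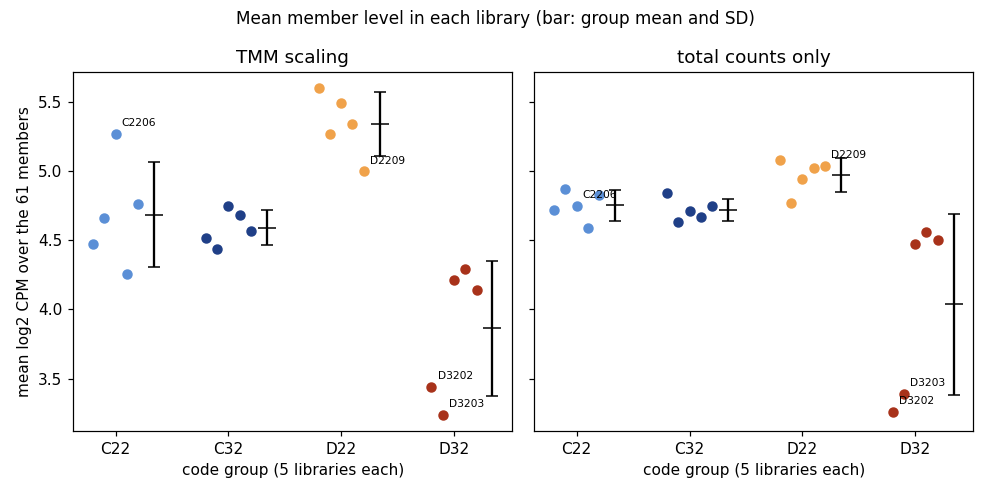
Mean log2 CPM over the 61 members in each library, by code group, with TMM scaling (left) and with total counts only (right), and the group mean and SD of 5 libraries beside the points. D3202 and D3203 are lowest with both. C2206 is at 5.27 with TMM, within the range of D22, and at 4.75 with total counts, just below the D22 range of 4.77 to 5.08. With total counts C2204 (4.87), C3204 (4.84) and C2208 (4.83) lie within the range of D22, and with TMM they lie below it.

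The difference between D and C over both temperatures of the codes was not among the limits of the rule. The test of it is not independent of the rule, however, since the fit has no term for the temperature of the codes. The D22 to D32 difference that chose the members thus enters the spread within D. Nothing is therefore read from the absence of calls among the members. The 10 D libraries were compared with the 10 C libraries by edgeR's quasi-likelihood test over all 8477 genes. No member was called at an adjusted p under 0.05, and neither was any other gene (0% of all genes), the smallest adjusted p being 0.536 among the members and 0.274 among all genes. At an unadjusted p under 0.05 there were 3 members (4.92%) and 451 of all genes (5.32%). With all 4 groups in one fit, 7 members and 720 of all genes were under 0.05 unadjusted, and again no gene was called. DESeq2 called 82 genes, edgeR's likelihood ratio test 6 and limma voom 1, and none of these was a member. The mean L of D minus C ran from −0.62 to 0.63 over the members, with a median of 0.03, and was below 0 for 29 and above 0 for 32. Over all genes the median was −0.02. The fitted log2 fold changes, which are fitted to the counts and are not differences of mean L, had a median of 0.20 and were below 0 for 17 members. Without D3202 and D3203 the median of the mean L difference was 0.17, and still no member was called.

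The members at the upper end of this difference were AB205_0060190, AB205_0203450 and AB205_0191450, at 0.63, 0.61 and 0.46. They were also the 3 with an unadjusted p under 0.05. In AB205_0203450 the D22 libraries had 345.7, 342.7, 343.9, 176.0 and 191.5 CPM, above all 10 C libraries at 78.5 to 171.1, and the D32 libraries had 115.6 to 147.3, within the C range. The fitted log2 fold change of D over C was 0.70 with a standard error of 0.25 (unadjusted p = 0.0102, adjusted p = 0.536). AB205_0060190 had 22.3 to 43.8 in D22, 10.9 to 19.9 in D32 and 8.54 to 29.5 in C, and its fitted log2 fold change was 0.73 with a standard error of 0.29 (adjusted p = 0.676). AB205_0191450 had 386.0 to 587.6 in D22 and 190.0 to 360.6 in D32, beside 195.1 to 396.6 in C. In AB205_0060190 and AB205_0191450 the D22 range overlapped C2206 and no other C library. D32 lay among the C tadpoles in AB205_0060190, while in AB205_0191450 D3205 and D3207 were just below the lowest C library.

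At the lower end were AB205_0048290, AB205_0133280 and AB205_0083900, at −0.62, −0.61 and −0.55. AB205_0048290 had 3.93, 4.09, 6.73, 3.35 and 3.11 CPM in D22 and 0.845, 0.771, 2.03, 1.39 and 2.94 in D32, in the order of the codes. C2206 had 9.31 and the other C libraries 3.04 to 4.04, so D22 lay among the C tadpoles and every D32 tadpole below them. Its fitted log2 fold change of D over C was −0.46 with a standard error of 0.34 (adjusted p = 0.999). AB205_0133280 had 3.77 to 6.48 in D22, 0.845 to 3.63 in D32 and 2.99 to 9.81 in C. In AB205_0133280 the D32 tadpoles D3205 and D3206 lay among the C tadpoles and the other 3 lay below them.

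The contrast that chose the members was also fitted, and nothing is read from its calls. Between D32 and D22 the quasi-likelihood test called 43 of the 61 members lower in D32 at an adjusted p under 0.05, against 6.28% of all genes. Of the 23 members led by D3202 and D3203 it called 7, and of the other 38 it called 36. The adjusted p of AB205_0023940 was 0.0428, that of AB205_0005830 was 0.328 and that of AB205_0160450 was 0.236. The number of members called fell to 24 without D2201 or D2203, to 27 without D3205 or D3207 and to 9 with total counts. Calls over all genes, in either direction, numbered 1074 in the main fit and 427 and 431 without D2201 or D2203. They numbered 565 and 401 without D3205 or D3207, and 1591 with total counts.

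Whether the difference between the temperatures of the codes differed between D and C was fitted as the interaction of all 4 groups. The selection had used both sides of it. The quasi-likelihood test called no member and 0% of all genes. The smallest adjusted p was 0.212 among the members and 0.207 among all genes. At an unadjusted p under 0.05 there were 47 members (77%) and 1097 of all genes (12.9%). The rule used both sides of this contrast, so nothing is read from these counts or from those that follow. The likelihood ratio test called 24 genes and limma voom called no gene, neither with a member among its calls, while DESeq2 called 435 genes, 18 of them members.

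How the members varied among tadpoles of the same group was described by correlations. Over the 1830 pairs of members, deviations from group means correlated with a median of 0.33 over the 20 libraries. Within the 10 C libraries, whose spread was not itself a limit of the rule, the median was 0.42. Over the 6364 genes without a count of 0 and below 1000 CPM both medians were 0. These are descriptions, and the libraries of a pair share their scaling factor. Members were chosen to fall together between groups that differ in TMM factor, while all genes hold both directions. Nothing is therefore read from the difference to 0. The correlations were not computed with total counts or for the 273 genes that fell in D. In C22, C2206 was above its group mean for 56 of the 61 members and C2207 below it for 56. In D22, D2201 was above for 51 and D2209 below for 52. In D32, D3203 was below for 46 and D3206 above for 47. These counts of members were not made over all genes, and nothing is read from them. Within the C libraries the median correlation was 0.19 among the 23 members led by D3202 and D3203 and 0.57 among the other 38.

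The deviations of some other pairs were also highly correlated. Those of AB205_0176720 and AB205_0041420 correlated at 0.966, with a ratio of 0.795 to 1.13, and those of AB205_0139470 and AB205_0160450 at 0.950. The latter are both led by D3202 and D3203, with an SD of L of 2.12 and 2.04 in D32 against 0.30 and 0.11 in D22. They had 52.4 and 29.8 CPM in C2206 but 1.13 and 2.26 in D3203, so their ratio was not steady. Their correlation without D3202 and D3203 was not computed. AB205_0066530 and AB205_0066520, whose identifiers differ by a single step of the numbering, correlated at 0.943 with a ratio of 2.27 to 3.43. Their positions in the genome were not used here. A few members had a single C tadpole far above the rest. AB205_0110130 had 14.6 CPM in C2208 and 1.11 to 4.57 in the other C libraries, and AB205_0005980 had 44.2 in C3205 and 4.84 to 18.9 in the others; both genes were named after their values were seen.

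Membership depended on single tadpoles. With any 1 tadpole left out the rule gave 50 to 107 genes, the most without D2209, and 17 of the 61 members were in all 20 of these sets. Among the 17 were AB205_0170190, AB205_0160450, AB205_0107120, AB205_0176720 and AB205_0048290, while AB205_0041420 and AB205_0064610 were in 11. Of the 10 members with the largest fall, each was in at least 17 of the 20 sets. They were ranked by a difference that the rule itself limits and lay far inside that limit, so nothing is read from this.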

How the data were processed

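Trim Galore (trimming), BWA (mapping, American bullfrog draft genome) and StringTie (counting) were used by the authors, who then dropped low-abundance transcripts; versions are not given in the sources used here. The authors deposited whole-number counts per gene, not normalized, of 8477 genes in 20 libraries; all 8477 genes had at least 2 CPM in at least 3 libraries. Tadpoles were grouped by animal code, which the member rule names; the treatment fields differ for 10 tadpoles. The members and lists were chosen with earlier results of these data known.

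Counts were scaled by TMM in edgeR 4.0.16 (R 4.3.3). Tests were edgeR's quasi-likelihood test over all 8477 genes with Benjamini–Hochberg adjustment. Separate fits were used for D against C (10 against 10) and D32 against D22 (5 against 5), and a fit of 4 groups for the interaction. The standard error was obtained by dividing the size of the log2 fold change by the root of its F statistic. Scripts were tested on simulated data. Alternatives were DESeq2 1.42.0, limma 3.58.1 (voom with quality weights), the likelihood ratio test, other scalings, prior counts, filters and limits, and each tadpole left out.

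Genes named by rule were the 10 members with the largest fall, the 6 most abundant, the 3 highest and 3 lowest in D minus C, and those nearest each limit on both sides; others are named for a count of 5 or fewer, as an exception, or for running in parallel, chosen after their values were seen. Gene lists by symbol were not used, since identifiers are not paired with names. P-values set a difference against the spread between these sibling tadpoles within the groups compared. In D against C that spread includes the differences between D22 and D32 and between C22 and C32.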

Additional observations from a re-analysis of the deposited data

Results flagged for a closer look

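In 104 groups of 5 libraries (25 named genes and the member mean, in 4 groups each), a single library lay far from the other 4 in 7, and chance gives about 1 in 20. Of the 7, 6 were high values in C2206 among the C22 libraries. These 6 share 1 library and its scaling factor and are not independent, so nothing is read from how 7 compares with chance. The flags were not computed with total counts. With total counts the member mean L of C2206 was 4.75, within the 4.59 to 4.87 of the other C libraries. Normalized CPM in C2206 was 392.9 against 263 to 280.8 for AB205_0064610, 29.5 against 11.5 to 14.7 for AB205_0060190, 396.6 against 219.7 to 260.1 for AB205_0191450, 9.31 against 3.04 to 3.44 for AB205_0048290, and 166.0 against 65.0 to 78.8 for AB205_0159290. It was 169.6 against 44.1 to 63.5 for AB205_0064720, the gene just outside the limit on the C groups. C2206 had the lowest TMM factor of the C libraries, 0.697, and the part of that factor was not tested gene by gene. The remaining value was that of AB205_0005830 in D2206, at 131.1 CPM against 109.7 to 115.1 in the other D22 libraries, a small distance in a narrow group.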

How the results depend on the processing

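The number of genes that met the rule was 61; it was 6 with total counts, 108 with a C limit of 0.5, 18 with a fall of at least 1.5, 123 without D3202, D3203 and C2206 (chosen after the data were seen), and 50 to 107 with 1 tadpole left out. The other alternatives gave 42 to 80 genes. The members called between D32 and D22 numbered 43 in the main fit, 9 with total counts, 2 at an adjusted p under 0.01, 16 with the animal number as a replicate block, and 24 to 40 with 1 tadpole left out. Over all genes, in either direction, the same settings gave 1074, 1591, 53, 302 and 401 to 1290 calls. The block changed no call of the other comparisons. The animal numbers were not taken to pair tadpoles, since over 12 same-numbered pairs the correlation of deviations ran from −0.36 to 0.14. DESeq2 called 18 members and 435 of all genes for the interaction, and the other alternatives called no member. No alternative called a member between D and C. With total counts the median fall was −0.74 and the median of D22 over C was 0.27, and the median of all genes moved by 0.51 and −0.45. With 1 tadpole left out, the medians ran from −1.33 to −1.21 for D32 minus D22, from −0.19 to 0.03 for C32 minus C22, and from −0.07 to 0.08 for D minus C. The 61 members were held fixed here. The rule had set limits on D32 minus D22 and C32 minus C22, so nothing is read from the narrow ranges of these medians.

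With 5 tadpoles a group, 1 or 2 tadpoles can set a mean, and the 2 members with under 10 counts in a library are known with large counting error.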

Other observations

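With the same limits and the opposite sign, 68 genes were higher in every D32 than in every D22 tadpole and steady between C22 and C32. With the letters exchanged, 7 genes were lower in C32 than in C22 and steady between D22 and D32. Both counts were made over the same 6364 genes and with TMM only. With total counts the member rule itself gave 6 genes in place of 61, so nothing is read from how these counts compare. Among the 15 genes that met every limit but for a count of 0, 7 were at 0 in D3202 alone or in D3203 alone, with D32 minus D22 from −3.83 to −1.64 on the log2 scale, and AB205_0055160, AB205_0217170 and AB205_0104620 were at 0 in exactly these 2 tadpoles. The fall of such genes depends on the prior count. The other limits favour a count of 0 in D32 over D22, so nothing is read from which tadpoles were at 0.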
